A study of Mus musculus with 4 samples.

Results

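The cell cycle and DNA replication genes described here are 40 of the 25239 genes in the deposited count table, read by their symbols in 4 bulk RNA-seq libraries of NKT cells, a T cell lineage whose receptor binds lipids on CD1d, from the small intestinal lamina propria (SI-LP). They comprise 16 genes of S phase, which copy the DNA, and 24 genes of G2 and mitosis, which separate the chromosomes. They were selected on the spread of *Mki67*, the gene of the proliferation antigen Ki-67, whose level differed widely between replicates. Differences between the replicates are therefore given as descriptions, with no test.

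Cells that enter the cycle first induce the genes that load the MCM helicase on replication origins and supply nucleotides, largely through E2F transcription factors. Genes of mitosis follow later, when the MuvB complex joins the factors MYBL2 and FOXM1, whereas in resting cells MuvB is part of the repressive DREAM complex. MuvB binds a promoter element called the cell cycle genes homology region (CHR), often beside boxes of the letters CCAAT. In the small intestine the epithelial crypts are the main site of continuous cell division, whereas most tissue-resident T cells divide little at rest.

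All 4 libraries belong to a single condition. The cells came from WT C57BL/6Jax mice, which the methods describe as males and females aged 7 to 10 weeks. Every mouse received an anti-ARTC2 nanobody shortly before harvest, and cells were sorted as TCRβ+ CD1d-tetramer+ cells after exclusion of dead cells and of cells with B220, CD11b, CD11c or CD8. Sample titles mark replicates 3 and 4 as First and replicates 1 and 2 as Second. These pairs are called the first and the second experiment here, although the titles do not say what the words stand for. The labels do not say whether a library holds cells of a single mouse or of several, so any p-value measures only the spread between these 4 samples, which may be technical.

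The libraries held from 3882803 counts on genes (replicate 4) to 8732858 (replicate 2), and 3 counts, taken as the smallest level a library can show, correspond to 0.287 to 0.753 CPM (counts scaled by edgeR's TMM factors, so that libraries of unlike depth can be compared). Levels below it rest on 1 or 2 counts. The 7 T cell markers summed to 2545, 991, 3474 and 1298 CPM in replicates 1 to 4, while *Cd8a* and *Cd8b1* together stayed at or below 1.25 CPM. Markers of epithelium moved the other way. The 21 epithelial markers held 0.0955% of counts in replicate 1, 0.9498% in replicate 2, 0.0187% in replicate 3 and 2.94% in replicate 4, so replicates 2 and 4 stand apart from their partners in both lists. In bulk samples, fewer cells of a type and less RNA per cell cannot be told apart.

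Promoter sequences are a feature that the choice of genes did not use. RefSeq promoter windows on GRCm38.p6, from 250 bases before to 50 bases after the transcription start, were at hand for 32 of the 40 genes, with 33 windows since *Mcm7* has more than 1 start. No window was given for *Aurkb*, *Ccna2*, *Ccne2*, *Foxm1*, *Gins2*, *Kif20a*, *Mcm4* and *Tpx2*. The 250 bases before the start are shown for the 3 genes with the highest mean TPM (counts per length, scaled to the same sum in every library) in each phase whose windows hold a searched motif, which are *Cenpa*, *Mki67* and *Ccnb2* in mitosis and *Pcna*, *Mcm3* and *Rrm2* in S phase. Those of *Top2a*, *Cdk1* and *Mcm6* were added after their values were seen, because they hold several kinds of motif. Each is written 5′ to 3′ along the gene's strand, with capitals marking matches on either strand to a CCAAT box, a CHR or an E2F motif. The CHR was searched as TTTGAA, which reads TTCAAA on the opposite strand, and in its other form as TTCGAA. On the opposite strand a CCAAT box appears as ATTGG. The E2F motif was searched as TTTCCCGC, as TTTCGCGC, as TTTGCCGC and as TTTGGCGC.
Mki67, chr7:135716380-135716629, minus strand: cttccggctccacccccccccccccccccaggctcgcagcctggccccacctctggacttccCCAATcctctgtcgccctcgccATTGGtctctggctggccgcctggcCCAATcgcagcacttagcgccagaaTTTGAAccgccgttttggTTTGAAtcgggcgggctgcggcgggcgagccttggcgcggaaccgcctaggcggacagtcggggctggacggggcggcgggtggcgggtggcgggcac
Top2a, chr11:99024190-99024439, minus strand: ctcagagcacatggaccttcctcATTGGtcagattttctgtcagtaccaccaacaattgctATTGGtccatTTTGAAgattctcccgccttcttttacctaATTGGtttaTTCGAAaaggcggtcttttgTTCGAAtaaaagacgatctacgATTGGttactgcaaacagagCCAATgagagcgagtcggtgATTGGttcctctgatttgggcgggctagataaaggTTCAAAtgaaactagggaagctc
Ccnb2, chr9:70421555-70421804, minus strand: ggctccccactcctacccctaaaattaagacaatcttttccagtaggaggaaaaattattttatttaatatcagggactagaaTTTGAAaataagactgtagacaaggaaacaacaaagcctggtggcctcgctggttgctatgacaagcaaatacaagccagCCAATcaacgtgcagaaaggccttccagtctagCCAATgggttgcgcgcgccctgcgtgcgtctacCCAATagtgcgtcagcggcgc
Cdk1, chr10:69352913-69353162, minus strand: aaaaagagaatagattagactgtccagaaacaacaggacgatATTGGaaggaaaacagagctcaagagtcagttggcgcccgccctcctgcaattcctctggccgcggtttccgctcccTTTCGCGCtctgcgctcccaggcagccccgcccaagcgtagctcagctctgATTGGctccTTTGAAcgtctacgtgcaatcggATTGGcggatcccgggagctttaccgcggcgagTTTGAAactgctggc
Cenpa, chr5:30666636-30666885, plus strand: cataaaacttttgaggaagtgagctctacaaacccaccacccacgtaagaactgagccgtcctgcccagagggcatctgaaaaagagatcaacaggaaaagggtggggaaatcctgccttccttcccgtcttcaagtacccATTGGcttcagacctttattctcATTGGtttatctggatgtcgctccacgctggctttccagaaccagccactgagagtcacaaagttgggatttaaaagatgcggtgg
Pcna, chr2:132253181-132253430, minus strand: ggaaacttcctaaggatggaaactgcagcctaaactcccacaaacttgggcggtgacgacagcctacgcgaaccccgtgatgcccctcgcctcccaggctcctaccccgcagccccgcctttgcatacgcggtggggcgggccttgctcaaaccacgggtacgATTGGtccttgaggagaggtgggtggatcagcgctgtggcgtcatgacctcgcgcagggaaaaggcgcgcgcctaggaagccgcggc
Mcm3, chr1:20820313-20820562, minus strand: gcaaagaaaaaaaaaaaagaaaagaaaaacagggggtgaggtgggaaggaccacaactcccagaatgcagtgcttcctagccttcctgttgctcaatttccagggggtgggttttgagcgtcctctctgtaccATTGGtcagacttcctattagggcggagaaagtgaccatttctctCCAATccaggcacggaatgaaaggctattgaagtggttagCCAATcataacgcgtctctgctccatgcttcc
Mcm6, chr1:128359706-128359955, minus strand: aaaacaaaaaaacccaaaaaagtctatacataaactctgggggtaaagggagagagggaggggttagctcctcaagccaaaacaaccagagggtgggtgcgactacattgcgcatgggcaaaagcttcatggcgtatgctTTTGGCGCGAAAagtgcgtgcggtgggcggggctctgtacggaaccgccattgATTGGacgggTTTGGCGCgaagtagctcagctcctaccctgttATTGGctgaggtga
Rrm2, chr12:24708004-24708253, plus strand: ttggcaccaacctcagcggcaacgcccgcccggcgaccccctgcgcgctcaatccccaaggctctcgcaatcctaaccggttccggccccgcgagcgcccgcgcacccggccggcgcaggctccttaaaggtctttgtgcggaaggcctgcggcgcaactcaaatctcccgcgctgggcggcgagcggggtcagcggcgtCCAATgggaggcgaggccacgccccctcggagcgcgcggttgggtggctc

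These sequences are examples, and *Top2a*, *Cdk1* and *Mcm6* were added for their motifs, so they cannot show a difference between the phases. The *Mki67* stretch carries 3 CCAAT boxes and 2 CHR matches, and that of *Top2a* 6 CCAAT boxes and 4 CHR matches. *Ccnb2* holds 3 CCAAT boxes and 1 CHR match, and *Cenpa* 2 CCAAT boxes and no CHR match in the bases shown. *Cdk1* was the 1 mitosis gene with a match to the E2F motif, beside 3 CCAAT boxes and 2 CHR matches. In S phase, *Mcm6* holds 3 E2F matches, of which a pair overlap head to head in a single stretch, and *Pcna*, *Mcm3* and *Rrm2* hold CCAAT boxes with neither of the other motifs in the bases shown.

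Over all windows, a CHR match was found in 15 of 19 windows of G2 and mitosis genes (78.9%) and in 2 of 14 of S phase genes (14.3%), against 19.2% of the 32851 windows of the table. The E2F motif went the other way, with 6 of 14 windows of S phase genes (42.9%), 1 of 19 of G2 and mitosis genes (5.26%) and 2.26% of all windows. CCAAT boxes were frequent in both, in 89.5% of G2 and mitosis windows and 64.3% of S phase windows, against 37.4% of all windows. In the bases before the start alone, the CHR was in 42.1% of G2 and mitosis windows and 17.1% of all windows, and the E2F motif in 28.6% of S phase windows and 1.86% of all. The 22 CHR matches of mitosis genes had a median position 15.5 bases before the start, and 16 of them lay within 100 bases of it. A match is a description of letters and not of a bound site.

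**Figure D1:**
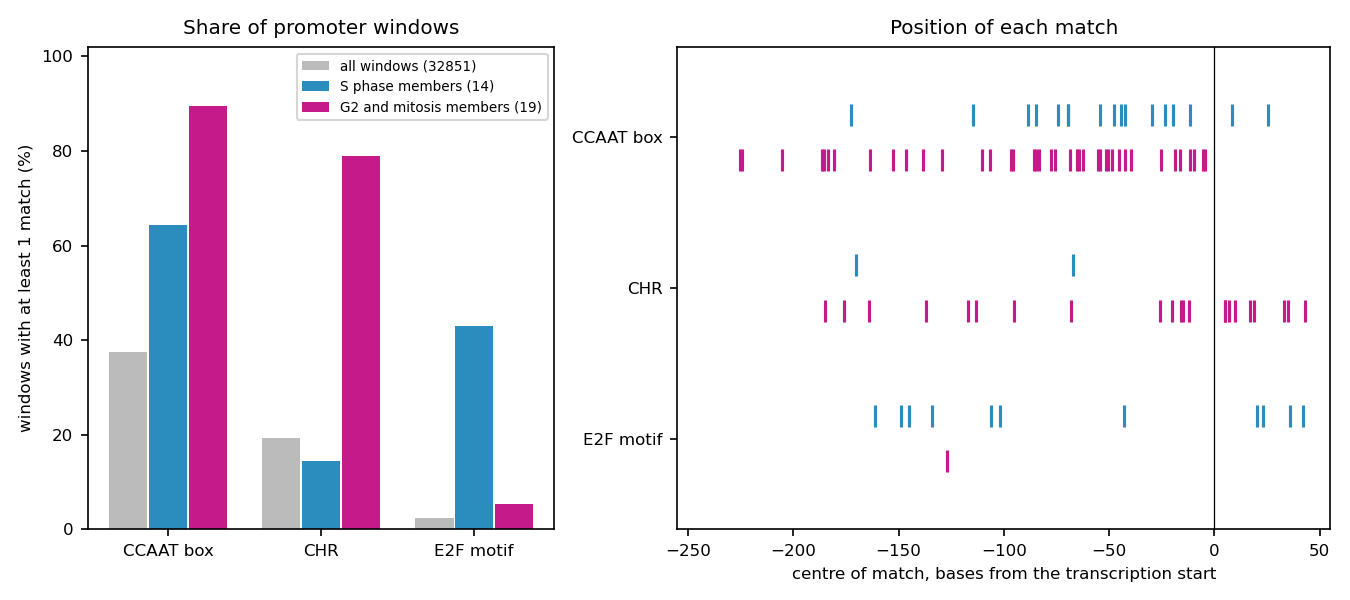
Left, bars give the percentage of RefSeq promoter windows (250 bases before to 50 bases after the start) with at least 1 match to each motif, for all 32851 windows, the 14 windows of S phase genes and the 19 of G2 and mitosis genes. Right, each tick is the centre of a match in a member's window in bases from the transcription start, with S phase genes in blue and G2 and mitosis genes in magenta. CHR matches are in 78.9% of the mitosis windows and 14.3% of the S phase windows, and E2F matches in 5.26% and 42.9%.

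As a group, the 40 genes made up a small part of each library, and their share differed between the libraries of each experiment. They took 0.0567% of the counts in replicate 1 (95% Wilson interval 0.0550 to 0.0584), 0.166% in replicate 2 (0.163 to 0.169), 0.0492% in replicate 3 (0.0474 to 0.0511) and 0.176% in replicate 4 (0.172 to 0.180). The intervals hold counting error alone, because PCR copies were not marked by molecular identifiers and reads are not independent molecules. Replicates 2 and 4 were thus each above their partner in the same experiment, and the experiments themselves held 1 high and 1 low library each. *Mki67* alone provided 28.0% of the member counts of replicate 2 and 4.85% of those of replicate 3.

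By summed level, the mitosis genes differed more between the libraries than the S phase genes, while by the median over genes this was so in the first experiment and not in the second. Summed over the 24 G2 and mitosis genes, the level was 234 CPM in replicate 1, 828 in replicate 2, 120 in replicate 3 and 982 in replicate 4, a mean of 541 ± 428 CPM (SD, n = 4). The 16 S phase genes summed to 334, 558, 483 and 731 CPM, a mean of 526 ± 165 CPM. The ratio of the S phase sum to the mitosis sum, which does not depend on how libraries are scaled, was 1.43 in replicate 1, 0.673 in replicate 2, 4.03 in replicate 3 and 0.744 in replicate 4. Per length, by TPM, it was 2.25, 1.35, 5.32 and 1.17, and without *Mki67* the CPM ratio was 1.91, 1.27, 5.33 and 1.01. The median difference over the mitosis genes was 3.46 log2 units in the first experiment and 1.59 in the second, and over the S phase genes 1.24 and 2.23. In each form of the ratio, replicate 3 was the library with the least mitosis RNA beside its S phase RNA, and replicates 2 and 4 lay below their partners.

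**Figure D2:**
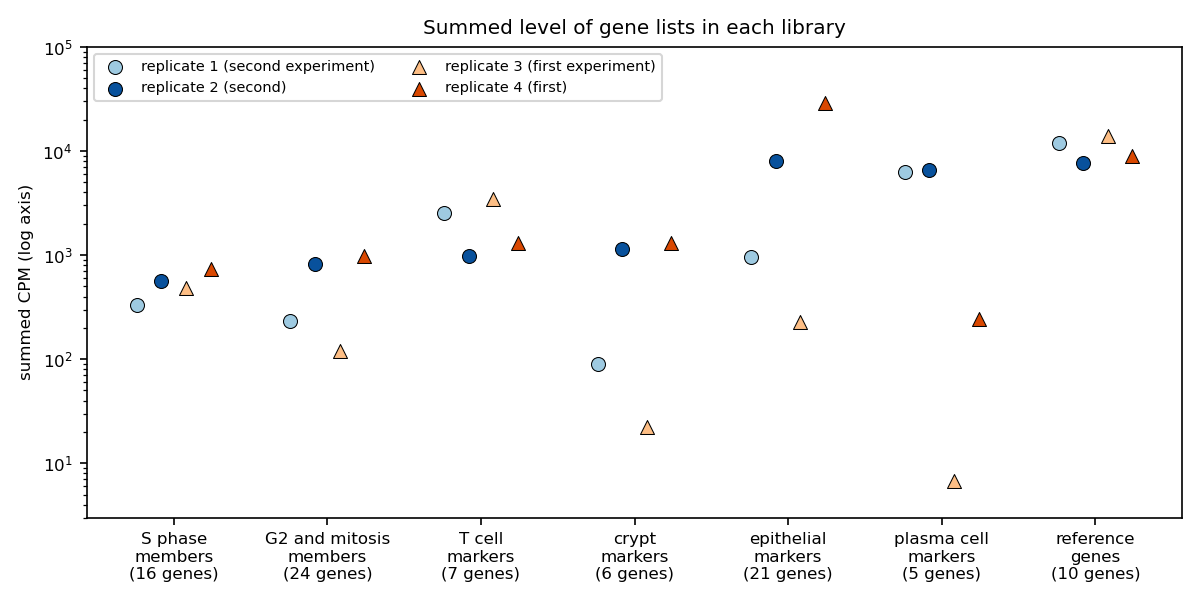
Each point is the summed level of a gene list in 1 library, in CPM on a log axis, with circles for the second experiment (replicates 1 and 2) and triangles for the first (replicates 3 and 4). The G2 and mitosis genes span 120 to 982 CPM and the S phase genes 334 to 731 CPM. The crypt, epithelial and mitosis sums are higher in replicates 2 and 4 than in their partners, and the T cell sum is lower.

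At the level of single genes, *Mki67* (chromosome 7, 135689788 to 135716379, GRCm38) had 58.3 CPM in replicate 1, 388 in replicate 2, 29.2 in replicate 3 and 257 in replicate 4. The lower and the higher pair did not overlap. The level in replicate 4 was 8.79-fold that in replicate 3 (95% counting interval 7.32 to 10.6), and that in replicate 2 was 6.66-fold that in replicate 1 (6.02 to 7.38). Its mean was 183 ± 170 CPM (SD, n = 4), and the SD of its log2 CPM over the 4 libraries stood at percentile 73.5 of the 11689 genes tested, so many genes varied more. *Top2a*, which encodes the topoisomerase that untangles replicated chromosomes, had 5.82, 56.8, 8.93 and 185 CPM. It followed the same order of pairs with replicate 4 at the top.

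Over the whole list, 33 of 40 genes were more than 1 log2 unit higher in replicate 4 than in replicate 3, against 30.6% of the 11689 genes tested, and 26 of 40 in replicate 2 than in replicate 1, against 34.1%. In the other direction were 1 of 40 (*Cenpa*) in the first experiment, against 19.3%, and 2 of 40 (*Cdt1* and *Birc5*) in the second, against 25%. In both experiments at once this held for 24 of 40 genes, against 19% of the genes tested, for 0 in the lower direction, against 8.08%, and 1 gene (*Birc5*) went in opposite directions, against 8.16%. To be tested a gene needed 10 or more counts in 2 or more libraries, which 38 of the 40 reached, the exceptions being *Kif20a* and *Ttk*. Another 6 of the 38 (*Ccne2*, *Ccnb1*, *Cdk1*, *Foxm1*, *Plk1* and *Cdc20*) reached it through replicates 2 and 4 alone, where they are high. With 10 or more counts required in all 4 libraries, 11 of 21 members were higher in both, against 8.91% of such genes. The median difference of the 40 genes was 3.11 log2 units in the first experiment and 1.80 in the second, and that of all genes tested 0.08 and 0.13. With genes at 0 counts set to the floor of 3 counts, the medians of the 40 were 3.16 and 1.601. By phase, 15 of 24 G2 and mitosis genes and 9 of 16 S phase genes were higher in both experiments.

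The genes just inside and just outside this margin show where it lies. *Aurkb* was higher by 1.08 log2 units in the first experiment and *Cdt1*, just outside, by 0.98. In the second, *Mcm6* was inside with 1.12 log2 units, and *Kif11* outside with 0.62.

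Without any threshold, the 2 highest libraries were replicates 2 and 4 for 27 of the 40 genes, against 27.7% of the genes tested. They were 19 of 24 in G2 and mitosis and 8 of 16 in S phase. Replicate 4 was the highest library for 23 genes and replicate 2 for 12, and the lowest was replicate 1 for 17 and replicate 3 for 16. The highest and lowest library were not counted over all genes tested, and the list was chosen for a spread between replicates. These counts therefore describe the list alone. Of the 40 genes, 10 had at most 3 counts in replicate 1 and 9 in replicate 3, against 0 in replicates 2 and 4. Of the 11689 genes tested, 1309 were that low in replicate 1, 1431 in replicate 3, 498 in replicate 2 and 455 in replicate 4. Counts of at least 10 in all 4 libraries were reached by 21 of the 40 genes and by 8089 of the 11689 genes tested.

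**Figure D3:**
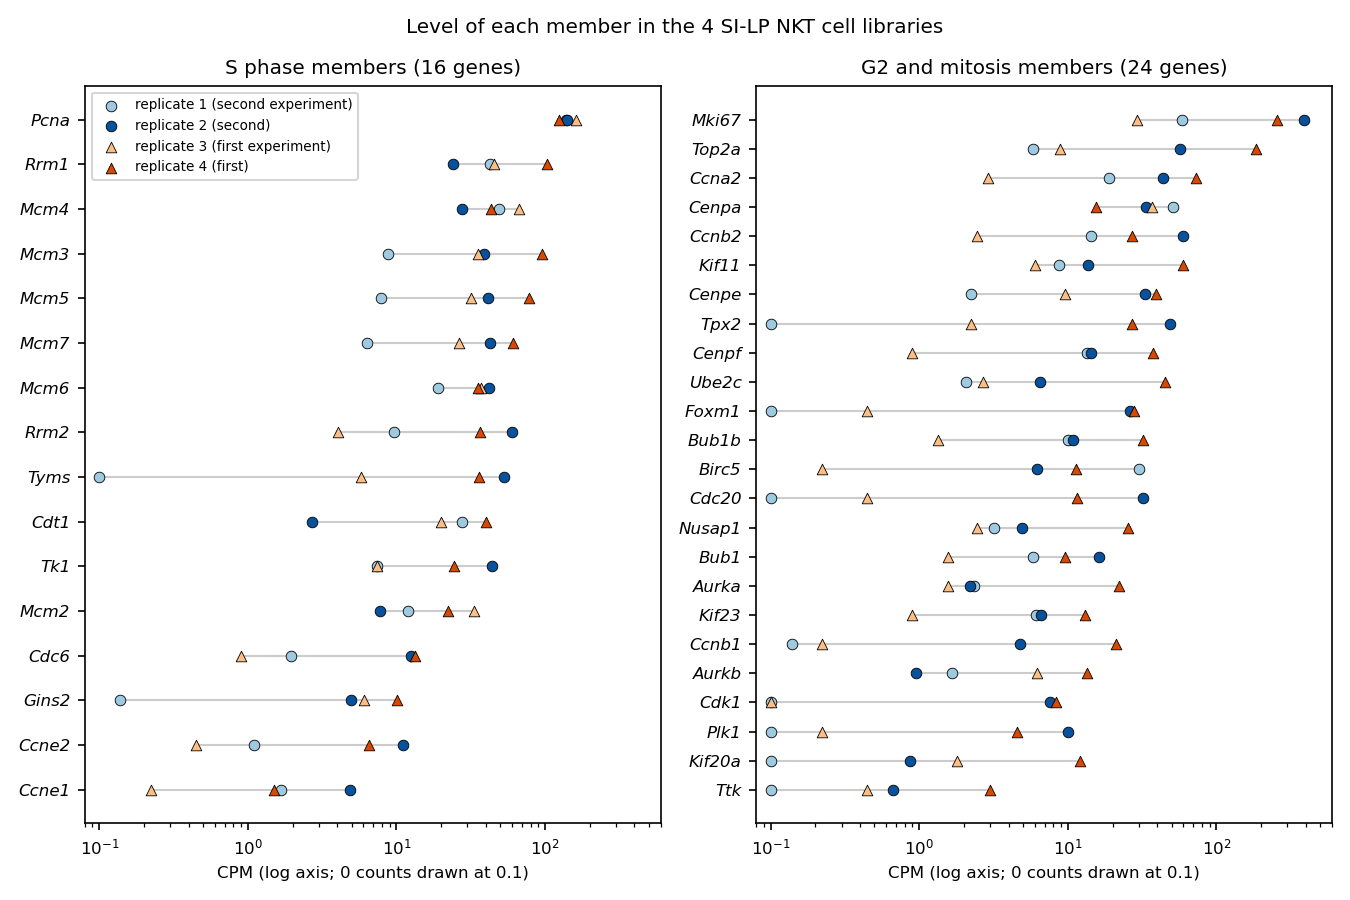
Points give the CPM of each of the 40 genes in each library on a log axis, with genes ordered by mean CPM within their phase, and 0 counts drawn at 0.1 CPM. The span within a gene is narrowest for *Pcna* (124 to 162 CPM), and for most mitosis genes the dark points (replicates 2 and 4) lie right of the light ones.

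Origin licensing and the helicase come first in S phase. *Cdc6* and *Cdt1* load the MCM ring on origins, and they did not move together. *Cdc6* had 1.94, 12.54, 0.893 and 13.3 CPM in replicates 1 to 4, so its pairs did not overlap. *Cdt1* had 27.4, 2.68, 20.1 and 39.9 CPM, with its lowest level in replicate 2, where *Mki67* was highest. *Gins2*, a subunit of the GINS complex that activates the helicase, had 1 count in replicate 1 and 4.98, 6.03 and 10.04 CPM in replicates 2, 3 and 4. Its exons share 11.4% of their bases with *Gse1* on the opposite strand, and without strand in the counting the reads of such pairs cannot be told apart.

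The 6 subunits of the MCM ring fell into those that were higher in both experiments and those that were not. *Mcm3* had 8.73, 39.1, 35.3 and 95.3 CPM in replicates 1 to 4. Like it, *Mcm5* (7.90, 41.3, 31.7 and 77.5 CPM) and *Mcm7* (6.37, 42.5, 26.3 and 61.0 CPM) were lowest in replicate 1 and highest in replicate 4. *Mcm2* had 12.1, 7.76, 33.0 and 22.1 CPM and *Mcm4* 49.3, 27.8, 66.5 and 43.4 CPM, so both were lower in replicates 2 and 4 than in their partners by less than 1 log2 unit, and higher by less than 1 log2 unit once libraries were scaled to the T cell markers. *Mcm6* had 18.98, 41.7, 36.8 and 35.6 CPM, with replicate 1 lowest and the others close together.
The ring is built from 1 copy of each subunit, and its messages were present in unequal amounts per length. In replicate 1 *Mcm4* was the highest at 41.3 TPM and *Mcm7* the lowest at 6.65 TPM, a ratio of 6.21. In replicate 2 *Mcm7* was the highest at 45.4 TPM and *Mcm2* the lowest at 7.08 TPM. The span was narrowest in replicate 3, with a ratio of 2.23 between *Mcm4* and *Mcm6*, and it was 4.8 between *Mcm3* and *Mcm2* in replicate 4.

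Nucleotide supply and the sliding clamp gave the most even gene of the list and some of the least even. *Pcna*, the clamp that holds DNA polymerases on the template (chromosome 2, 132249286 to 132253180), had 139, 141, 162 and 124 CPM, a mean of 142 ± 15.8 CPM (SD, n = 4). Its SD of log2 CPM was 0.16, the lowest of the list, against a median of 1.75 over the 40 genes and 1.02 over all genes tested. At a mean of 309 TPM it was also the highest member per length, with a mean percentile of 96.3 among the genes tested. *Rrm1*, the large subunit of ribonucleotide reductase, had 42.4, 24.1, 45.5 and 103 CPM, and its log2 difference between replicates 2 and 1 was -0.805, or 0.54 when scaled to the T cell markers. Its partner *Rrm2*, the subunit whose message is made in S phase, had 9.56, 59.8, 4.02 and 36.6 CPM with no overlap between the pairs.
The thymidylate genes followed *Rrm2*. *Tk1*, thymidine kinase, had 7.34, 43.8, 7.37 and 24.3 CPM. *Tyms*, thymidylate synthase, had 0 counts in replicate 1 and 53.3, 5.80 and 36.1 CPM in replicates 2, 3 and 4. Against the floor of 3 counts in replicate 1, its level in replicate 2 was at least 128-fold higher. A pseudogene, *Tyms-ps*, is in the table, and counts of *Tyms* are uncertain where reads could be shared with it.
Both E-type cyclins, the partners of CDK2 at the start of S phase, were low. *Ccne2* had 1.11, 11.01, 0.446 and 6.52 CPM, and 53.9% of its exon bases overlap those of *Ints8* on the opposite strand. *Ccne1* had 1.66, 4.88, 0.223 and 1.51 CPM, with 1 count in replicate 3, so the ratio of replicate 4 to 3 was 6.74 with a counting interval from 0.818 to 310.2.

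Of the mitotic cyclins, *Cdk1* and *Foxm1*, all 5 genes were higher by over 1 log2 unit in both experiments. The share over the genes tested was 19%, and *Ccnb1*, *Cdk1* and *Foxm1* passed the filter through replicates 2 and 4 alone. The groups of 2 genes (E-type cyclins, *Cdc20* with *Ube2c*, *Mki67* with *Top2a*) were also higher throughout. With genes at 0 counts set to the floor, the 5 had medians of 4.65 log2 units in the first experiment and 4.19 in the second. *Cdk1*, the kinase that starts mitosis, was at 0 counts in replicates 1 and 3, at 7.57 CPM in replicate 2 and at 8.28 CPM in replicate 4. Set against 3 counts in the partner library, it was at least 12.4-fold higher in replicate 4 and at least 18.2-fold higher in replicate 2. *Foxm1*, the transcription factor of late cell cycle genes, had 0, 26.3, 0.446 and 27.8 CPM in replicates 1 to 4, so the low pair held at most 2 counts. *Ccnb1*, cyclin B1, was at 1 count in each of replicates 1 and 3 and at 4.79 and 21.1 CPM in replicates 2 and 4.
The remaining cyclins were measurable in every library. *Ccna2*, cyclin A2, which acts from S phase into mitosis, had 18.8, 43.9, 2.90 and 72.8 CPM. Its exons share 11.2% of their bases with *Exosc9* on the opposite strand, where reads of the pair cannot be told apart. *Ccnb2*, cyclin B2, had 14.4, 59.6, 2.46 and 26.9 CPM. Thus in replicate 1 the B-type cyclins were unequal, with 104 counts of *Ccnb2* beside 1 of *Ccnb1*. Per length, *Ccnb2* had 28.1 TPM and *Ccnb1* 0.180 TPM in that library.

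Kinases and checkpoint genes of mitosis went in 1 direction in the first experiment and were mixed in the second. All 7 genes of this group were more than 1 log2 unit higher in replicate 4 than in replicate 3, against 30.6% of the genes tested. In replicate 2, 3 of 7 were higher than in replicate 1 by that margin, against 34.1%, and 1 (*Birc5*) was lower, against 25%. *Aurka*, the Aurora kinase of the spindle poles, had 2.36, 2.20, 1.56 and 22.1 CPM, so only replicate 4 was high. *Bub1b*, which encodes the checkpoint kinase BubR1, had 9.98, 10.8, 1.34 and 31.9 CPM. *Aurkb*, the kinase of the chromosomal passenger complex, had 1.66, 0.958, 6.25 and 13.5 CPM, with both libraries of the first experiment above both of the second.
*Birc5*, which encodes survivin, a partner of Aurora B in that complex, went in opposite directions in the experiments. It had 29.9, 6.22, 0.223 and 11.3 CPM, with 216 counts in replicate 1 and 1 count in replicate 3. *Plk1*, Polo-like kinase 1, did separate both pairs, with 0, 10.05, 0.223 and 4.52 CPM, and so did *Bub1* with 5.82, 16.3, 1.56 and 9.53 CPM. *Ttk*, the Mps1 kinase, did not exceed 12 counts in any library.

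Among the centromere genes, *Cenpa* went against most of the list. *Cenpa* encodes the histone H3 variant that marks centromeres, and it had 50.7, 33.6, 37.05 and 15.6 CPM. Its log2 difference of -1.24 between replicates 4 and 3 was the 1 of the 40 below -1, and it became 0.17 when libraries were scaled to the T cell markers. *Cenpe*, a kinetochore motor, had 2.22, 33.2, 9.60 and 39.4 CPM, whereas *Cenpf*, a kinetochore protein made in G2, had 13.4, 14.3, 0.893 and 37.4 CPM. *Cenpf* therefore differed within the first experiment only, by 4.97 log2 units, against 0.08 in the second.

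Spindle motors and their partners were more than 1 log2 unit higher in replicate 4 than in replicate 3 for 5 of 5 genes, against 30.6% of the genes tested. In replicate 2, 2 of 5 were higher than in replicate 1 by that margin, against 34.1%, and 0 were lower. *Kif11*, the motor that pushes spindle poles apart, had 8.73, 13.6, 6.03 and 60.0 CPM, and *Nusap1*, a microtubule-binding protein of the spindle, had 3.19, 4.88, 2.46 and 25.6 CPM. In both, replicate 4 was high and the other 3 libraries were low. *Kif23*, a motor of the central spindle, had 6.10, 6.61, 0.893 and 13.1 CPM. *Tpx2*, which activates Aurora A on the spindle, separated both pairs, with 0 counts in replicate 1 and 48.4, 2.23 and 27.1 CPM in replicates 2, 3 and 4. *Kif20a*, a motor of cytokinesis, had 0, 9, 8 and 48 counts, and 28.6% of its exon bases overlap *Cdc23*, so its counts are uncertain.

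Both partners of the anaphase-promoting complex, the ubiquitin ligase that ends mitosis, were higher in both experiments. *Cdc20*, which directs that ligase to its targets, had 0, 32.1, 0.446 and 11.5 CPM, at least 77.2-fold higher in replicate 2 than the floor of replicate 1. *Ube2c*, its ubiquitin-conjugating enzyme, had 2.08, 6.51, 2.68 and 45.2 CPM. Replicate 4 stood far above the other libraries for *Ube2c*, and replicate 2 was the highest for *Cdc20*.

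Per length, the 38 members tested ran from percentile 10.6 (*Cdk1*) to percentile 96.3 (*Pcna*) of the genes tested, as the mean of their TPM percentiles in the 4 libraries. *Kif20a* and *Ttk*, which were not tested, had lower means (2.36 and 0.851 TPM) than *Cdk1* (2.52 TPM). The 16 S phase genes had a median percentile of 54.1 and the G2 and mitosis genes that were tested 28.5. *Cenpa*, at a mean of 60.9 TPM, was the highest of the mitosis genes, with *Mki67* at 51.6 TPM and *Ccnb2* at 48.5 TPM. In replicates 1 and 3, the libraries with low mitosis sums, *Cenpa* had 96.3 and 57.6 TPM.

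**Figure D4:**
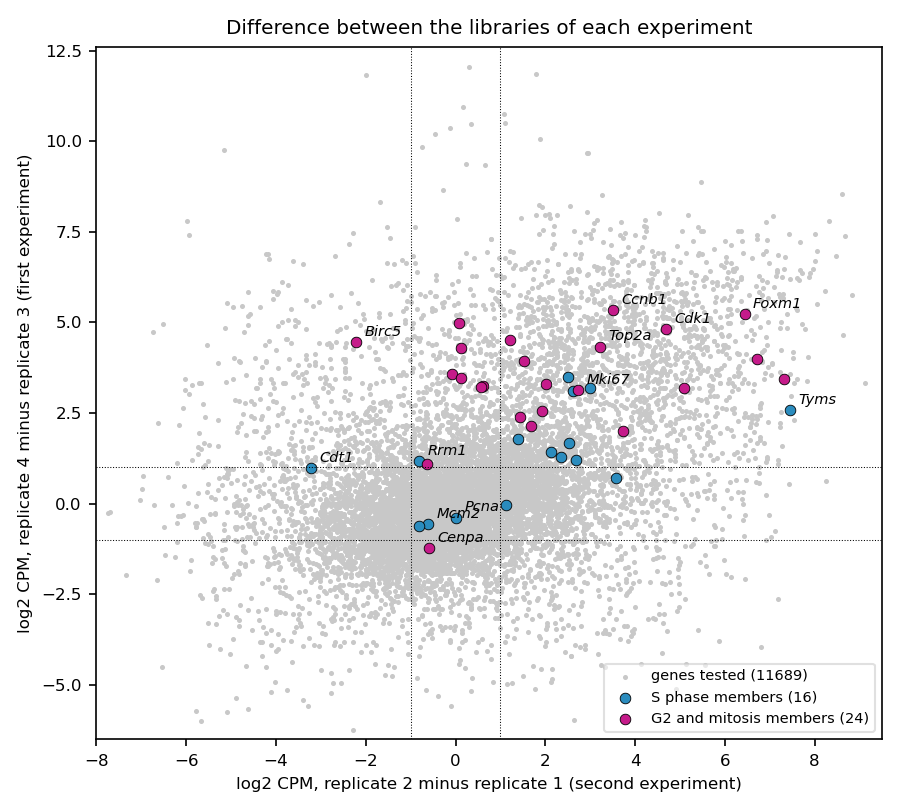
Each point is a gene, placed by its log2 CPM difference within the second experiment (replicate 2 minus 1, horizontal) and within the first (replicate 4 minus 3, vertical), with the 11689 genes tested in grey and dotted lines at 1 log2 unit. Of the 40 genes, 24 lie in the upper right corner and 0 in the lower left, with *Birc5* and *Cdt1* on the left.

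Between the experiments, as the First and Second of the titles are called here, none of the genes passed the test. On simulated data with the dispersion of these libraries, edgeR's test recovered no changed genes, so the absence of calls cannot show equal levels. In edgeR's quasi-likelihood test of the second experiment against the first, with 2 libraries each, 0 of 38 genes had a Benjamini-Hochberg adjusted p under 0.05, and 0% of all 11689 genes did. At an unadjusted p under 0.05 there were 0 of the 38, and 2.12% of all genes. DESeq2 called 0 of the 36 members and 0.494% of the 10727 genes to which it gave an adjusted p, and edgeR without the filter on low counts called 0 of the 40 and 0.37% of 16223 genes. The smallest p of the list was that of *Aurkb*, whose log2 fold change was -2.90 with a standard error of 1.80 (adjusted p = 1 by edgeR).
Libraries of the same experiment differed widely. The biological coefficient of variation (root of the common dispersion in edgeR) was 0.976 over all genes tested. Its median over single genes was 0.892 for all genes tested and 1.11 for the 38 members tested.

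The differences within experiments had the direction of the crypt markers and of most epithelial markers, and not that of all other cell types. The 6 crypt markers, led by the stem cell gene *Olfm4*, summed to 90.8 CPM in replicate 1, 1146 in replicate 2, 22.3 in replicate 3 and 1314 in replicate 4. All 6 were higher by over 1 log2 unit in replicates 2 and 4 than in their partners, with medians of 3.60 and 6.41 log2 units, and 3 of them were at 0 counts in each of replicates 1 and 3. Of the 21 epithelial markers, 17 were higher in both and 2 (*Fabp1* and *Apoa4*) went in opposite directions. Their sums were 957, 7943, 229 and 28670 CPM, of which the Paneth cell gene *Lyz1* gave 21150 CPM in replicate 4.
T cell markers moved in the opposite direction. All 7 were lower by over 1 log2 unit in replicate 4 than in replicate 3 and 4 of 7 in replicate 2 than in replicate 1, with medians of -1.47 and -1.03 log2 units and *Cd3e* the highest of them. Per 1000 counts of T cell markers, the 40 genes had 223 counts in replicate 1, 1399 in replicate 2, 173 in replicate 3 and 1319 in replicate 4. The S phase genes had 131, 563, 139 and 563 counts on that scale and the mitosis genes 91.8, 836, 34.5 and 756. The part of epithelial RNA in the levels of the 40 genes was not tested.

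Other lists had other patterns. Plasma cell markers, mostly *Jchain*, summed to 6279, 6542, 6.70 and 242 CPM, with both libraries of the second experiment above those of the first. B cell markers, with *Cd79a* highest, summed to 57.9, 52.3, 0.446 and 15.1 CPM. Germinal centre B cell markers, of a type that also divides, summed to 14.6, 3.93, 20.3 and 56.7 CPM, with *S1pr2* the highest by mean. *S1pr2* had 20.3 CPM in replicate 3 and 19.1 in replicate 4. *Gcsam*, named after its values were seen, had 32.1 CPM in replicate 4 and 0 counts in replicates 1, 2 and 3. Myeloid markers, with *Lyz2* highest, ran from 29.9 to 137 CPM. Stromal and endothelial markers, with *Pecam1* highest, ran from 18.96 to 177 CPM, and mast cell markers, of which only *Cpa3* was detected, reached 1.26 CPM at most. The 10 reference genes, of which *Actb* was the highest, had median differences of -0.44 log2 units in the first experiment and 0.09 in the second.

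Further genes of the same pathways were counted by the same margin, beside the 19% of all genes tested that were higher in both experiments and the 8.08% lower in both. Of 52 other mitosis genes, 29 were higher by over 1 log2 unit in both and 1 (*Cenpn*) was lower, with medians of 2.29 and 2.27 log2 units. The 2 with the highest mean level were not among the 29. *Smc4*, a condensin subunit, had 373, 94.0, 125 and 143 CPM, and *Bub3*, a checkpoint protein, had 64.6, 33.6, 55.4 and 41.6 CPM. Of 39 other replication genes, 9 were higher in both experiments and 2 lower, shares near those of all genes, with medians of 0.60 and 1.49 log2 units. *Orc3*, of the origin recognition complex, had 105.0, 92.4, 71.7 and 50.2 CPM, and *Slbp*, which binds histone messages, had 62.8, 88.7, 82.8 and 53.7 CPM. In edgeR's test between the experiments, 0 genes of the 4 pathway lists (mitosis, replication, G1 control and antiproliferative genes) had an adjusted p under 0.05. At an unadjusted p under 0.05 there was 1, *Cdca8*, a subunit of the chromosomal passenger complex named after its values were seen, with 0, 0.479, 3.13 and 32.4 CPM.

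**Figure D5:**
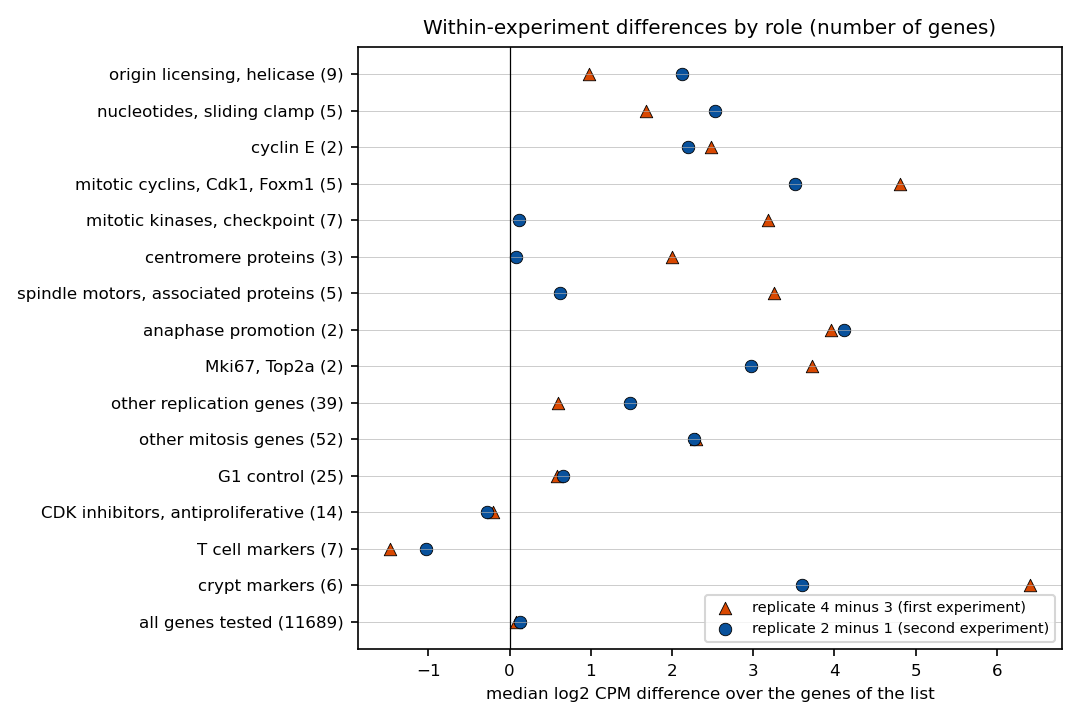
Points give the median log2 CPM difference over the genes of each list, within the first experiment (triangles, replicate 4 minus 3) and within the second (circles, replicate 2 minus 1), with the number of genes in brackets. Mitotic cyclins with *Cdk1* and *Foxm1* lie at 4.81 and 3.52 log2 units, which depend on the prior count since some of their libraries hold 0 or 1 counts, kinases and checkpoint genes at 3.19 and 0.11, crypt markers at 6.41 and 3.60, and T cell markers at -1.47 and -1.03.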

How the data were processed

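The 4 bulk RNA-seq libraries of SI-LP NKT cells form 2 pairs, titled First and Second, which are called experiments here. The authors prepared them with a kit for low RNA amounts and deposited raw counts per gene, which per the file headers were made with featureCounts 1.6.4 from primary alignments of read pairs on exons. Genes were those of RefSeq and strand was ignored. The methods name HISAT2 as aligner and GRCm39 as genome, while the labels name GRCm38.p6, on which all 40 genes overlap their deposited position and which all coordinates follow. A further 2 library columns match no sample label and were not used.

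Members were matched by symbol. CPM used edgeR's TMM factors, TPM the gene lengths deposited by the authors, and log2 CPM a prior count of 2. Genes with 10 or more counts in 2 or more libraries (11689) were tested between experiments by the quasi-likelihood test of edgeR, and p-values were adjusted over all of them by the Benjamini-Hochberg method. Within an experiment there is 1 library on each side, so differences are described without a test. The 40 genes and the gene lists were chosen with earlier results of these data known. All members are named, and of each pathway list the 2 genes with the highest mean CPM, and of each marker list the highest. The procedure was tested on simulated data, where it recovered changed genes at a low dispersion and not at that of these libraries.

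Alternatives were DESeq2, median-of-ratios factors, library size alone, scaling without the 10 most abundant genes or to the T cell markers, other filters, thresholds and prior counts, TPM in place of CPM, sums without *Mki67* (added after seeing the data), motifs before the start alone, and leaving out each replicate. Software was edgeR 4.0.16 and DESeq2 1.42.0 with limma 3.58.1 in R 4.3.3, and scipy 1.17.1, pandas 2.3.3, numpy 2.4.6 and matplotlib 3.10.9 in Python 3.11.15.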

Additional observations from a re-analysis of the deposited data

Results flagged for a closer look

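In 5 of the 44 results examined, 1 library lay far from the other 3. Chance gives this in about 1 in 20 independent results, but these genes were chosen for a spread between replicates and vary together, so the count is a description and not a test. All 5 are mitosis genes, and in each it was replicate 4 that stood above the rest. *Aurka* had 22.1 CPM there and 1.56 to 2.36 CPM elsewhere, a gap of 0.961 of its whole range. *Ube2c* had 45.2 CPM against 2.08 to 6.51, with a gap of 0.897, and *Nusap1* 25.6 CPM against 2.46 to 4.88, with a gap of 0.895. For *Kif11*, replicate 4 was at 60.0 CPM and the others at 6.03 to 13.6, a gap of 0.86. *Kif20a* had 12.04 CPM against 0 to 1.79, a gap of 0.852, with exons that overlap those of *Cdc23* and *Brd8*. Epithelial markers took 2.94% of the counts of replicate 4 and 0.9498% of those of replicate 2, or 0.772% and 0.909% without *Lyz1*. Germinal centre B cell markers summed to 56.7 CPM in replicate 4 and 3.93 to 20.3 CPM elsewhere. The sums of myeloid markers and of stromal and endothelial markers were also highest in replicate 4, whereas those of plasma cell and B cell markers were not. Within the stromal and endothelial list, *Col1a1*, *Col3a1*, *Dcn* and *Pdgfra* were highest in replicate 4. *Pecam1* was lowest there at 12.3 CPM, and *Cdh5* had 0 counts there. The part of any of these lists in the values of the flagged genes was not tested.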

How the results depend on the processing

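No paired analysis was possible because there is a single condition. Between the experiments, 0 of the members tested were called under each alternative run, with 21 to 40 members tested. Over all genes the count of calls rose from 0 to 60 without the filter on low counts and to 53 with DESeq2, and when each replicate was left out it ran from 0 to 81 (10 without replicate 3 and 81 without replicate 4), with the lone library of an experiment assumed to vary like the other pair. For the differences within experiments, scaling to the T cell markers raised the medians of the 40 genes to 4.08 and 2.77 log2 units and of the S phase genes to 2.597 and 3.57, with 4.66 and 2.72 for the mitosis genes, while the median of all genes rose from 0.08 and 0.13 to 1.46 in both experiments. *Cenpa* then turned to 0.17 log2 units higher in replicate 4 than 3, and *Mcm2*, *Mcm4*, *Pcna*, *Rrm1* and others with small differences also changed sign. On that scale 33 of 40 genes and 44.3% of all genes were higher in both. With a margin of 2 log2 units, 14 of 40 genes, 4 of them of S phase, and 11.6% of all genes were higher in both. Of the 21 genes with 10 counts in every library, 15 were higher in replicate 4, 12 in replicate 2 and 11 in both (5 of 11 in S phase and 6 of 10 in mitosis), against 8.91% of such genes in both, with a median of 1.43 log2 units in the first experiment and of 1.12 for S phase genes in the second. These are fewer genes by construction. Total counts without the 10 most abundant genes gave a mean S phase sum of 701 CPM. Before the start alone, 10 member windows held a CHR, 8 of them of mitosis genes (42.1%, against 17.1% of all windows). A further 107 values of main results and 698 of single genes moved by less than the limits set, and 23 of single genes moved by more. The floor of 3 counts lies at 0.416 CPM in replicate 1 and 0.670 CPM in replicate 3, and lower levels there rest on at most 2 counts.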

Other observations

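Of the genes that control G1 and entry into S phase, the 3 with the highest mean CPM had lower CPM in replicates 2 and 4 than in their partners, as the T cell markers did. *Ccnd2*, a D-type cyclin, had 1247, 500.3, 1474 and 700.0 CPM in replicates 1 to 4 and *Rbl2*, which encodes the pocket protein p130, had 452, 159, 577 and 218 CPM. Of 25 genes of G1 control, 7 were higher by over 1 log2 unit in both experiments and 3 were lower in both, against 19% and 8.08% of all genes tested. The 3 that were lower were *Ccnd2*, *Rbl2* and *Lin54*, a DNA-binding subunit of MuvB, with 376, 70.5, 315 and 139 CPM, which was named after its values were seen. T cell markers had medians of -1.47 and -1.03 log2 units in the same libraries, and when scaled to them the differences were 0.35 and 0.04 for *Ccnd2*, 0.02 and -0.15 for *Rbl2* and 0.24 and -1.05 for *Lin54*.

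Among 14 inhibitors of CDKs and antiproliferative genes, 2 were higher in both experiments and 2 lower in both, against the same background, and the medians were -0.20 and -0.28 log2 units. *Btg2* had 619, 490.5, 1193 and 561 CPM and *Tob2* 823, 299, 1058 and 465 CPM. The log2 differences were -1.19 and -1.46 for *Tob2* and -1.09 and -0.34 for *Btg2*, and scaled to the T cell markers 0.23 and -0.10 for *Tob2* and 0.33 and 1.02 for *Btg2*. In edgeR's test between the experiments 0 genes of either list had an adjusted or an unadjusted p under 0.05.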
